A study of Mus musculus with 2 samples.

Results

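The Dusp and Sprouty genes, feedback inhibitors of mitogen-activated protein kinases (MAPKs), were examined in diabetogenic CD4 T cells. They are Dusp1, Dusp2, Dusp4, Dusp5, Dusp6, Dusp7, Dusp10, Dusp16, Spry1 and Spry2. They were taken by symbol from the deposited gene matrix, 10 of 54532 genes, and each symbol had 1 row. They lie on 10 different chromosomes. All 10 passed the count minimum of 20 over both libraries, as did 13902 genes in all.

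T cell receptor engagement activates Ras and then a kinase cascade that ends in ERK. ERK in turn induces its own brakes, the dual-specificity phosphatases (DUSPs), which remove phosphate from both the threonine and the tyrosine of the MAPK activation loop, and the Sprouty proteins, which act upstream at the level of receptor and Ras signalling. In T cells these brakes shape the length and strength of the signal, and poor ERK activation is a classic feature of anergic T cells. The DUSPs that act on MAPKs (MAPK phosphatases, MKPs) fall into a nuclear inducible class (Dusp1, Dusp2, Dusp4, Dusp5), a cytoplasmic class selective for ERK (Dusp6, Dusp7) and a class that prefers the stress kinases JNK and p38 (Dusp10, Dusp16).

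The study sequenced RNA of 2 pools of BDC-2.5 T cells, which carry a transgenic receptor of a T cell clone from the non-obese diabetic mouse that reacts with pancreatic beta cells. The 2.5HIP-PLG library came from NOD.scid mice injected intravenously with 1.75 mg of 2.5HIP-PLG nanoparticles 1 day after they had received activated BDC-2.5 cells, and the Untreated library came from NOD.scid recipients of the same cells without particles. NOD.scid mice lack mature T and B cells of their own. In both groups CD4-positive cells negative for the Foxp3 (GFP) reporter were isolated by sorting on day 6 from spleen and lymph nodes, and cells of 4 mice were pooled into 1 library. The sources used here give neither the age nor the sex of the mice. Library totals were 22580687 counts in 2.5HIP-PLG cells and 26036669 in Untreated cells, so that 1 count was worth 0.0443 and 0.0384 CPM (counts scaled to a library total of 1e6) in the same order.

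With 1 library per group there were no replicates, no test across samples was possible, and no p-value can be given. Ratios are 2.5HIP-PLG over Untreated after scaling by the library total. Their exact 95% intervals cover the error of counting alone, not differences between mice or preparations. A gene was called higher at a ratio of at least 1.5, and lower at the inverse of that ratio or less, when the interval also excluded 1. In bulk RNA, fewer expressing cells and less RNA per cell cannot be told apart. CD4 T cell genes were abundant, with Cd4 at 41743 counts in 2.5HIP-PLG cells and 39739 in Untreated cells. After scaling, the ratio of Cd4 was 1.21 (1.19 to 1.23). All 6 CD4 T cell markers had log2 ratios above 0, with a median of 0.37. Of these markers 0 were called, against 5.57% of genes with at least 1000 counts over both libraries. Among 31 markers of 9 other cell types, 23 were measured, of which 9 were higher and 3 lower, against 5.15% and 9.7% of all measured genes. The summed level of all 31 markers was 172 CPM in 2.5HIP-PLG cells and 171 CPM in Untreated cells. The B cell marker Ms4a1 had 0 counts in both libraries.

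Of the 10 genes, 3 were higher in 2.5HIP-PLG cells (Dusp4, Spry1 and Spry2), 1 was lower (Dusp5) and 6 were neither. Among all measured genes 14.8% were called, 5.15% as higher and 9.7% as lower. The calls were rarer among abundant genes. Of 7022 genes with at least 1000 counts over both libraries 5.57% were called, 2.71% as higher and 2.86% as lower, and of the 7 feedback genes in that range 1 was higher and 1 was lower. The median log2 ratio of the 10 genes was 0.23, against -0.01 over all measured genes, and their log2 ratios ran from -1.10 to 1.93. Without Spry1 the median was 0.05, the log2 ratio of Dusp10, as it would be without any other 1 gene above the median. Without any 1 gene below the median it would be 0.41, the log2 ratio of Dusp6. Summed over the 10 genes, the level was 925 CPM in 2.5HIP-PLG cells and 869 CPM in Untreated cells, a ratio of 1.06 (1.04 to 1.08), so the sum differed far less than several of its parts.

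**Figure D1:**
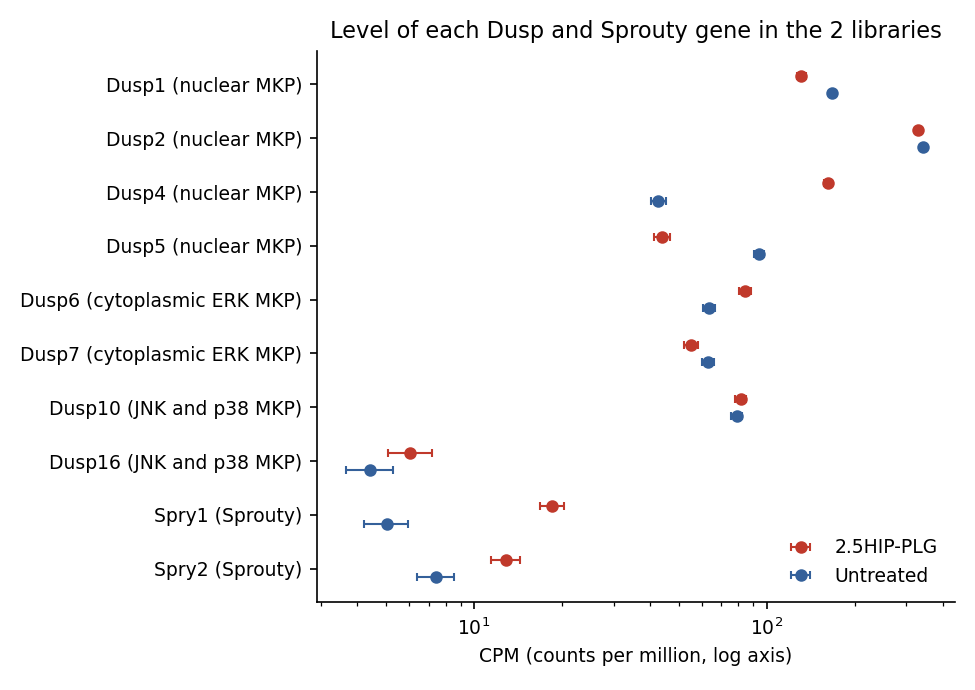
Level of each of the 10 genes in CPM on a log axis, with 2.5HIP-PLG cells in red above Untreated cells in blue; bars are exact 95% Poisson intervals of the count. Dusp4, Spry1 and Spry2 lie to the right in red, Dusp5 lies to the left, and Dusp2 and Dusp10 nearly coincide.

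The nuclear phosphatases held both the largest higher and the only lower call. Dusp4, a nuclear phosphatase of ERK and JNK, lies on chromosome 8 (34807297 to 34819894, plus strand, GRCm38). Dusp4 had 3657 counts (162 CPM) in 2.5HIP-PLG cells and 1110 counts (42.6 CPM) in Untreated cells. The ratio was 3.80 (3.55 to 4.07), and 0.842% of measured genes had a higher one. Among genes with at least 1000 counts, 0.285% exceeded the ratio of Dusp4.

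Dusp5, a nuclear phosphatase selective for ERK, differed in the opposite direction. It lies on chromosome 19 (53529109 to 53542431, plus strand). Dusp5 had 993 counts (44.0 CPM) in 2.5HIP-PLG cells and 2457 counts (94.4 CPM) in Untreated cells. The level was 2.15-fold lower in 2.5HIP-PLG cells (1.99 to 2.31), and 5.65% of measured genes, or 0.797% of those with at least 1000 counts, had a lower ratio. Per kilobase of transcript, Dusp4 stood at 3.32 times the level of Dusp5 in 2.5HIP-PLG cells (3.10 to 3.57) and at 0.408 times its level in Untreated cells (0.380 to 0.438). Which of these 2 transcripts was the more abundant thus differed between the libraries, and their ratio differed by 8.15-fold.

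Dusp1, an early response gene whose product acts on p38 and JNK as well as ERK, had 2967 counts (131 CPM) in 2.5HIP-PLG cells and 4361 counts (167 CPM) in Untreated cells. Its ratio of 0.784 (0.748 to 0.822) excluded 1 but missed the size rule. Dusp2, a phosphatase found mainly in blood cells, was the most abundant of the 10 genes, with 7426 counts (329 CPM) in 2.5HIP-PLG cells and 8904 counts (342 CPM) in Untreated cells. Its ratio of 0.962 (0.932 to 0.992) was close to 1. Dusp1, Dusp2 and Dusp5 together had a ratio of 0.835 (0.815 to 0.855), and the 4 nuclear enzymes with Dusp4 included had 1.03 (1.01 to 1.05).

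**Figure D2:**
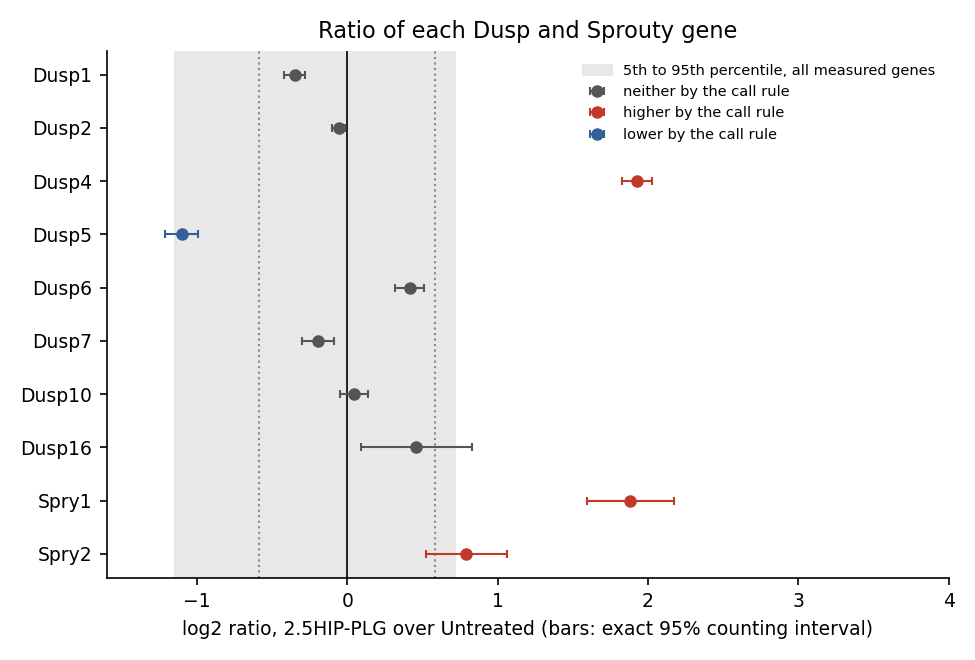
Log2 ratio of 2.5HIP-PLG over Untreated for each gene with its exact 95% counting interval; dotted lines mark a ratio of 1.5 in either direction, and the grey band spans the 5th to the 95th percentile of all 13902 measured genes (-1.14 to 0.72). The points of Dusp4, Spry1 and Spry2 lie right of the band, and Dusp5 lies inside its left edge.

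The start regions of Dusp5 and Dusp1 are printed because each holds an element found in no other member searched. The RefSeq tables (GRCm38.p6) gave a start region, 250 bases before to 50 after the start, for 9 of the 10 genes, and gave none for Dusp4. Each window was searched on both strands. Dusp5 held 2 adjacent CArG boxes, the element bound by serum response factor, beginning 82 and 72 bases before the RefSeq start. A CArG box was found in 1.63% of 32851 such windows. Dusp1 held the full cyclic AMP response element TGACGTCA, beginning 143 bases before its start, which 1.79% of all windows held. The capitals mark the CArG boxes in Dusp5 (chr19:53528895-53529108, plus strand) and the TGACGTCA element in Dusp1 (chr17:26508520-26508722, minus strand), and each run ends where the principal GENCODE transcript of its gene begins.
Dusp5: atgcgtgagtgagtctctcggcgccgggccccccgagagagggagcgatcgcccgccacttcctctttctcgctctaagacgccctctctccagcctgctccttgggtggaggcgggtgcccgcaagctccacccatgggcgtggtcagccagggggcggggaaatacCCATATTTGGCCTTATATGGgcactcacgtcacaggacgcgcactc
Dusp1: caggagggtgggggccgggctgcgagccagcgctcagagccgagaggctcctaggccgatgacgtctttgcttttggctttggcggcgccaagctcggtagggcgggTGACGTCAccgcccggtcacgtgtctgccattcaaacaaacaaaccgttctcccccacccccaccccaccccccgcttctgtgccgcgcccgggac

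The cytoplasmic ERK phosphatases differed little and in opposite directions. Dusp6, which keeps ERK inactive in the cytoplasm and is itself induced by ERK, had 1907 counts (84.5 CPM) in 2.5HIP-PLG cells and 1650 counts (63.4 CPM) in Untreated cells, a ratio of 1.33 (1.25 to 1.42). Dusp7, its close relative, had 1244 counts (55.1 CPM) in 2.5HIP-PLG cells and 1644 counts (63.1 CPM) in Untreated cells, a ratio of 0.873 (0.810 to 0.940). Both intervals excluded 1 and neither reached the size rule. Per kilobase, Dusp6 was 1.76 times as abundant as Dusp7 in 2.5HIP-PLG cells (1.64 to 1.89) and 1.15 times in Untreated cells (1.08 to 1.24).

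The phosphatases of the stress kinases were not called. Dusp10 had 1839 counts (81.4 CPM) in 2.5HIP-PLG cells and 2055 counts (78.9 CPM) in Untreated cells, and its ratio of 1.03 (0.968 to 1.10) was the only one of the 10 whose interval included 1 with this scaling. Under DESeq2 scaling the interval of Dusp2, 0.941 to 1.001, also included 1. Dusp16, which acts mainly on JNK, was the scarcest member, with 137 counts (6.07 CPM) in 2.5HIP-PLG cells and 115 counts (4.42 CPM) in Untreated cells. The interval of its ratio, 1.37 (1.06 to 1.78), reached past the threshold of 1.5, so a difference of that size was not resolved at this depth.

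Both Sprouty genes were higher. Spry1 lies on chromosome 3 (37639947 to 37644598, plus strand) and Spry2 on chromosome 14 (105891947 to 105896819, minus strand). Spry1, an inhibitor of Ras and ERK activation that also modulates T cell receptor signalling, had 418 counts (18.5 CPM) in 2.5HIP-PLG cells and 131 counts (5.03 CPM) in Untreated cells. Its ratio of 3.68 (3.02 to 4.51) was close to that of Dusp4, and 0.878% of measured genes had a higher one. Spry2, a second inhibitor of the same family, had 290 counts (12.8 CPM) in 2.5HIP-PLG cells and 193 counts (7.41 CPM) in Untreated cells, a ratio of 1.73 (1.44 to 2.09). The intervals of the 2 ratios did not overlap. Per kilobase, Spry1 was 1.08 times as abundant as Spry2 in 2.5HIP-PLG cells (0.932 to 1.26) and 0.511 times in Untreated cells (0.406 to 0.641).

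Spry1 was the single member whose expected counts were not whole, at 417.68 and 131.37 in the 2.5HIP-PLG and Untreated libraries. Some of its reads may therefore have been shared with another gene, which the counts do not name. On the opposite strand Spry1 overlaps Gm42922 by 710 exon bases, and that gene had 16 counts in 2.5HIP-PLG cells and 4 in Untreated cells. With those counts added the ratio was 3.71 (3.05 to 4.53). Dusp5 overlaps the antisense gene AC137853.2, which had 0 counts in both libraries.

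The start regions of the Sprouty genes are shown for comparison with that of Dusp5. Capitals mark the GC box GGGCGG in Spry1 (chr3:37639697-37639946, plus strand) and the NFAT core GGAAAA in Spry2 (chr14:105896820-105897069, minus strand). Spry1 held 1 GC box, a match present in 35.7% of all windows and in 7 of the 9 members, and none of the other elements searched. Spry2 held GGAAAA at 2 places, a match present in 23.4% of all windows and in no other member searched.
Spry1: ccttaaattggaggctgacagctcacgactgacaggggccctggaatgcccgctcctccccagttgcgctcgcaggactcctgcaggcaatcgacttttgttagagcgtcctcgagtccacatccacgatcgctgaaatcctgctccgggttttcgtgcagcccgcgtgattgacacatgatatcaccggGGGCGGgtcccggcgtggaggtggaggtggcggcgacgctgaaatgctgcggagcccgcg
Spry2: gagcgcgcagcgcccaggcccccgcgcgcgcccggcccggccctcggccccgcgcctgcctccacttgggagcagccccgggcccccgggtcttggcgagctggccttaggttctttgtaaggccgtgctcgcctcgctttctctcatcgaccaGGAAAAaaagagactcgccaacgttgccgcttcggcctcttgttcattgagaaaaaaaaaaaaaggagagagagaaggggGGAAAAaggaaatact

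Across the 9 windows the members shared a high content of G and C, from 57.3% in Dusp6 to 78.7% in Dusp7, against a median of 52.7% over all windows. The Egr element GCGNGGGCG was found in Dusp2 and Dusp16, where it overlapped a GC box, and in 5.55% of all windows. The E-box CACGTG was found in Dusp1 and Dusp2, and in 7.15% of all windows. The cyclic AMP half-site TGACG, which also counts inside the full element, was found in 4 of the 9 windows and in 20.8% of all. No member window held the AP-1 element TGANTCA (in 7.81% of all windows), the ETS element CCGGAAG (8.86%) or an NF-kB element (8.46%). None held the TATA box TATAAA (13.6%), and at such shares few are to be expected in 9 windows. These matches are descriptions of the letters in the window and were not tested as binding sites.

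**Figure D3:**
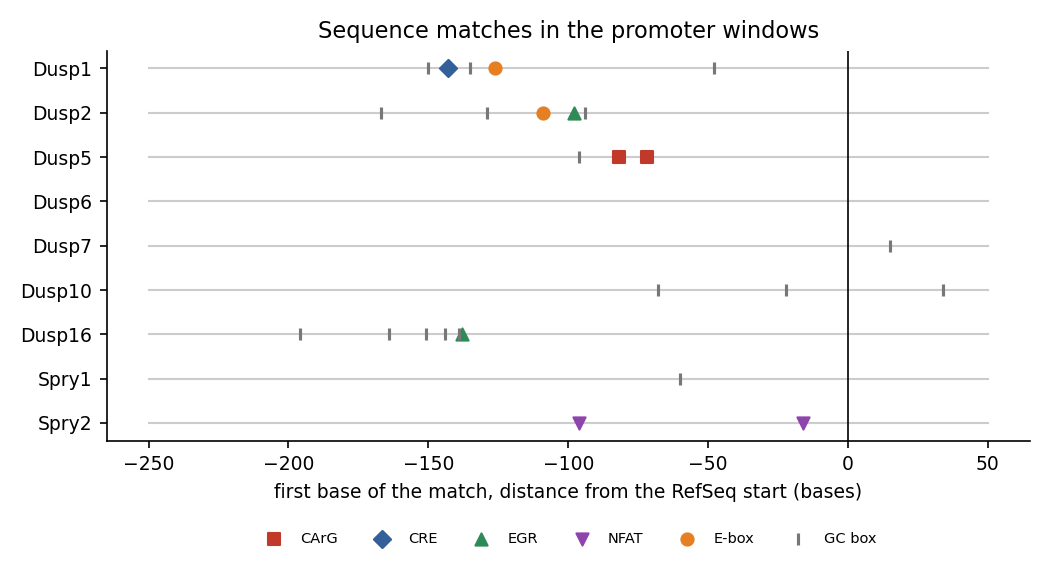
First base of each sequence match in the start regions of 9 members, as distance in bases from the RefSeq start (grey lines span 250 bases before to 50 after it). The pair of CArG boxes (red squares) is in Dusp5 alone and the full cyclic AMP response element (blue diamond) in Dusp1 alone.

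The 3′ untranslated regions were searched for short elements tied to mRNA decay and to microRNAs. The AU-rich heptamer TATTTAT, an element linked to rapid mRNA decay, was searched on the transcript strand and found in 4 of the 10 members, 3 times in Dusp1, 1 time in Dusp2 and 2 times each in Spry1 and Spry2. It was found in 28.0% of 11618 measured protein-coding genes with an annotated 3′ region, of which the median was 1016 bases long, against 581 to 2411 bases in the members. The 4 genes with the heptamer thus included both higher Sprouty genes and 2 genes that were not called.

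The microRNAs miR-181a, abundant in T cells and known to repress Dusp5 and Dusp6, and miR-21a, known to repress Spry1 and Spry2, were matched to the same regions by their seed (bases 2 to 8, in capitals below, from RefSeq). The seed match of miR-21a was present in 3 of the 10 members, Spry1, Spry2 and Dusp16, and in 7.08% of all such genes. That of miR-181a was present in Dusp5 alone among the members, and in 17.5% of all such genes. Both microRNAs were picked with known targets among the members, so these counts are not independent of that choice and show no enrichment. The sites are shown 5′ to 3′ with the seed match in capitals because they are complementary to the printed seeds. The precursor genes Mir181a-1, Mir181a-2 and Mir21a had 0 counts in both libraries, and mature microRNAs are not captured by an mRNA library, so their levels were not measured.
miR-21a-5p: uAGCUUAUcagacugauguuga
Spry1 site: catgtaagtgcttaaATAAGCTa
Spry2 site: ggagacccacattgcATAAGCTa
miR-181a-5p: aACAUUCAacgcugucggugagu
Dusp5 site: tcccgtaaacccatgTGAATGTg

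Levels of different genes were compared as CPM per kilobase of the principal transcript. In 2.5HIP-PLG cells Dusp2 led at 203, followed by Dusp1 at 66.0, Dusp4 at 59.1, Dusp6 at 30.2, Dusp10 at 29.2, Dusp5 at 17.8, Dusp7 at 17.1, Spry1 at 6.68, Spry2 at 6.15 and Dusp16 at 1.19 CPM per kilobase. The counting intervals of Dusp6 and Dusp10, of Dusp5 and Dusp7, and of Spry1 and Spry2 overlapped there, so these neighbours did not differ beyond counting error. In Untreated cells Dusp2 led at 211, followed by Dusp1 at 84.2, Dusp5 at 38.2, Dusp10 at 28.3, Dusp6 at 22.7, Dusp7 at 19.7, Dusp4 at 15.6, Spry2 at 3.55, Spry1 at 1.81 and Dusp16 at 0.865 CPM per kilobase, and no 2 neighbours overlapped. Dusp4 therefore ranked 3 in 2.5HIP-PLG cells and 7 in Untreated cells, while Dusp5 ranked 6 and 3 in that order. With the union of all annotated exons as the length, Dusp4 passed Dusp1 to rank 2 in 2.5HIP-PLG cells.

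On this per-length scale Dusp2 made up 46.6% of the summed level of the 10 genes in 2.5HIP-PLG cells and 49.6% in Untreated cells. Dusp4 made up 13.5% in 2.5HIP-PLG cells and 3.65% in Untreated cells. Dusp5 made up 4.07% and 8.95% in the same order, and Dusp1 15.1% and 19.7%. The Sprouty genes together made up 2.94% in 2.5HIP-PLG cells and 1.26% in Untreated cells.

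**Figure D4:**
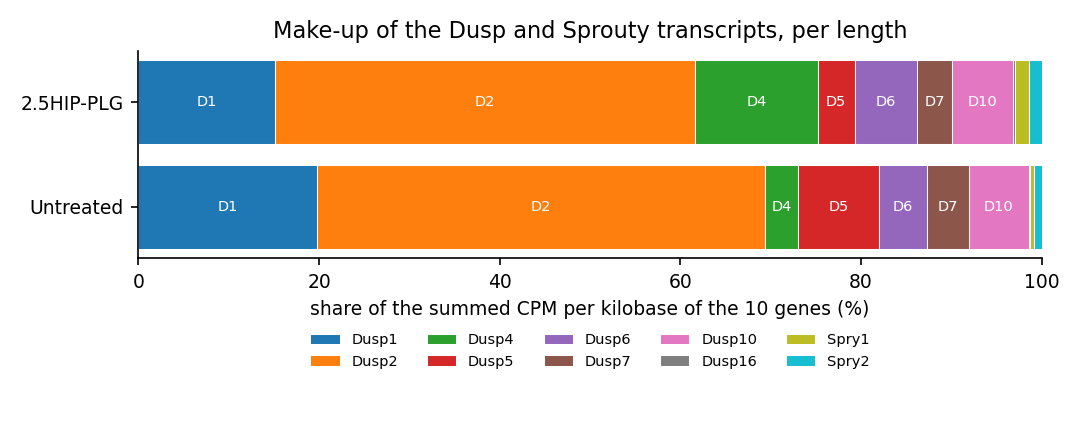
Share of each gene in the summed CPM per kilobase of the 10 genes, in percent, for 2.5HIP-PLG cells (upper bar) and Untreated cells (lower bar). The green segment of Dusp4 widens to 13.5% in 2.5HIP-PLG cells, against 3.65% in Untreated cells, and the red segment of Dusp5 narrows to 4.07%, against 8.95%.

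Other phosphatases and Sprouty relatives were mostly scarce or not called. Of 10 genes in this list 6 were measured, 2 were higher, 0 lower and 4 neither, against 14.8% called over all measured genes. Their median log2 ratio was 0.33. The higher ones were Ptpn5, a tyrosine phosphatase of MAPKs best known from the brain, with 62 counts in 2.5HIP-PLG cells and 16 in Untreated cells (4.47, 2.55 to 8.30), and Spred1, a Sprouty-related inhibitor of Ras, with 159 and 116 counts in that order (1.58, 1.24 to 2.03). Spred2, another such inhibitor, had a ratio of 1.35 (1.22 to 1.496), and Ptpn7, a tyrosine phosphatase of ERK in lymphocytes, had 7967 counts in 2.5HIP-PLG cells and 7804 in Untreated cells (1.18, 1.14 to 1.21). Spred3 had 19 and 32 counts (0.685, 0.367 to 1.25). Of 14 atypical DUSPs, which lack the MAPK docking domain, 10 were measured, of which 1 was higher and 0 were lower. That count is near the share of 14.8% called over all measured genes. The median log2 ratio of the atypical DUSPs was -0.10. The higher one was Dusp14, reported to restrain T cell receptor signalling, with 190 counts in 2.5HIP-PLG cells and 84 in Untreated cells (2.61, 2.01 to 3.41). The most abundant, Dusp11, had a ratio of 0.959 (0.921 to 0.999).

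Genes of the cascade that these inhibitors restrain were also examined. Of 25 genes from the receptor adaptor Lat through Ras to ERK and its kinase targets, all measured, 0 were called, close to the background share of 5.57% among genes with at least 1000 counts. Their median log2 ratio was -0.03. The largest ratio was that of Rasa1, a GTPase-activating protein that turns Ras off (1.47, 1.39 to 1.56). The lowest were those of Plcg1, a phospholipase that links the receptor to Ras (0.751, 0.730 to 0.774), and Rasgrp1, the exchange factor that activates Ras in T cells (0.787, 0.762 to 0.813). The ratio of Mapk3, which encodes an ERK protein, was 1.15 (1.08 to 1.23). Of 18 measured genes of the JNK and p38 cascades, 0 were higher and 1 was lower, and the median of their log2 ratios was -0.01. The count of 1 is near the share of 5.57% called among genes with at least 1000 counts, although some of the 18 had fewer. Over all measured genes 14.8% were called. The lower gene was Mapkapk3, a kinase activated by p38, with 1481 counts in 2.5HIP-PLG cells and 3127 in Untreated cells (1.83-fold lower, 1.72 to 1.95).

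Known transcriptional targets of ERK were called in both directions. Of 18 measured, 4 were higher, 1 lower and 13 neither, against 5.15% higher and 9.7% lower over all measured genes. The median log2 ratio of the 18 targets was -0.21. The higher ones were Egr2 (8.38, 7.27 to 9.69) and Egr3 (3.38, 3.05 to 3.75), zinc finger factors induced by receptor signalling, and the ETS factors Etv4, on 25 and 10 counts in the 2.5HIP-PLG and Untreated libraries (2.88, 1.34 to 6.73), and Etv5 (2.14, 1.66 to 2.77). The lower one was Ier3, singled out after its value was seen, with 135 counts in 2.5HIP-PLG cells and 245 in Untreated cells. Junb, an AP-1 subunit and the most abundant of them, had 11494 counts in 2.5HIP-PLG cells and 19473 in Untreated cells (0.681, 0.665 to 0.697).

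**Figure D5:**
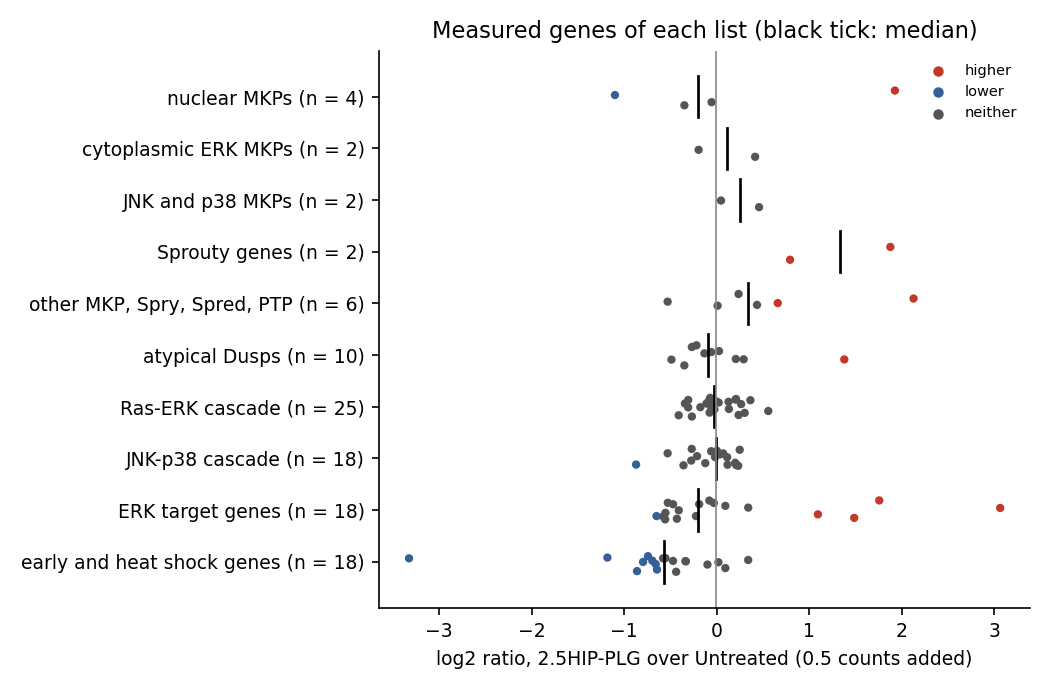
Log2 ratio of 2.5HIP-PLG over Untreated for every measured gene of each list, with 0.5 counts added; red is higher, blue is lower and grey is neither, the black tick is the median of the list and the thin line the median of all measured genes. The Ras-ERK cascade stays within -0.41 and 0.56, whereas nuclear MKPs and ERK target genes spread to both sides.

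Several other groups of genes also differed between the libraries, in both directions. A list of 18 early response and heat shock genes that tissue handling can induce shares 5 genes with the ERK targets. Of the 18, 0 were higher and 8 lower, against 5.15% higher and 9.7% lower over all measured genes. All but Atf3 had at least 1000 counts over both libraries, a range in which 2.71% of genes were higher and 2.86% lower. The median log2 ratio of this list was -0.57. Fosb had 1491 counts in 2.5HIP-PLG cells and 3903 in Untreated cells (2.27-fold lower, 2.14 to 2.41), and Jun had 4027 and 8443 counts in that order. Dusp1 and Dusp5 lay on the same side as that list, and its part in their values was not tested. Markers of neutrophils and of mast cells or basophils summed to 12.8 and 16.5 CPM in 2.5HIP-PLG cells, against 3.19 and 3.76 CPM in Untreated cells. Of 4 neutrophil markers 2 were measured and called higher, Mpo (237 and 57 counts in 2.5HIP-PLG and Untreated cells) and Elane (31 and 9). S100a8 (10 and 8 counts) and S100a9 (10 and 9) fell below the count minimum. Of 4 mast cell or basophil markers 3 were higher. Macrophage markers summed to 12.3 CPM in 2.5HIP-PLG cells and 7.80 CPM in Untreated cells (2 of 4 higher), and stromal markers to 3.99 and 2.30 CPM in that order (2 of 3 higher). Natural killer cell markers summed to 12.7 CPM in 2.5HIP-PLG cells and 17.5 CPM in Untreated cells (2 of 3 lower), and dendritic cell markers to 58.9 and 81.9 CPM in that order (1 of 3 measured lower). The level difference (2.5HIP-PLG minus Untreated) was 13.5 CPM for Spry1, 5.43 CPM for Spry2, 119 CPM for Dusp4 and -50.4 CPM for Dusp5. Of 3 regulatory T cell markers 2 were higher, Foxp3, whose expected counts were not whole, with 1157 counts in 2.5HIP-PLG cells and 389 in Untreated cells, and Ikzf2, with 1310 and 741 in that order, while Il2ra had 812 and 1358. The sort took CD4-positive cells without the Foxp3 reporter, and Foxp3 counts were nevertheless present in both libraries. The part of these cell types in the values of Dusp4, Dusp5, Spry1 and Spry2 was not tested.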

How the data were processed

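Per the labels' protocols, a Qiagen RNeasy Plus kit was used for RNA and a NuGen Universal Plus mRNA kit for the libraries. STAR and RSEM 1.3.1 and the build GRCm38 are named in the submitters' processing notes. Which annotation, filters, strand setting and STAR version they used is not stated there. The deposited values are expected counts per gene, the authors' estimates that divide shared reads among genes, not scaled between libraries. They were rounded to whole numbers. CPM are these counts scaled by the library total.

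Ratios and exact (Clopper-Pearson, conditional binomial) 95% intervals were computed in Python 3.11.15 with scipy 1.17.1, and log2 ratios with 0.5 counts added. Scaling alternatives used edgeR 4.0.16 and DESeq2 1.42.0 in R 4.3.3. The interval calculation was tested on simulated Poisson counts. These hold counting error alone, so the simulation checked the calculation and not the spread between mice or preparations. Gene models came from GENCODE M21 (GRCm38), start regions and microRNAs from RefSeq. The members and all lists were chosen with earlier results of these data known. Named genes were the members and, per list, the 4 with the largest absolute log2 ratio and the 2 with most counts, and some of these are not reported here. Mapk3, Jun, Foxp3, Ikzf2, Il2ra, Ier3, Ms4a1, Cd4, the overlapping genes and the sequence elements were chosen after values were seen. Intervals cover counting error only. The library labels do not say that molecular identifiers were used, so duplicated reads may be counted as separate, which the intervals do not allow for.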

Additional observations from a re-analysis of the deposited data

How the results depend on the processing

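The 3 higher and 1 lower calls were counted again under TMM, upper quartile and DESeq2 scaling and library totals without the 20 most abundant genes. They were also counted with unrounded counts, count minimums of 10, 100 and none, and a 99% interval. The count of 4 was the same under each. The count minimums could not change it, since the scarcest member, Dusp16, had 252 counts over both libraries. Among the members, rounding affected the counts of Spry1 alone. With a ratio of 2 as the threshold 3 of the 10 genes were called, since Spry2 fell below it. With the interval alone and no size threshold 9 were called, 5 as higher and 4 as lower. The share of all measured genes called was 14.8%, against 5.57% among genes with at least 1000 counts. The scalings moved the log2 ratio of all genes by at most 0.02, and all 51 values of single members stayed on their side of the call rule, with Dusp4 between 3.75 and 3.83, Spry1 between 3.63 and 3.71, Spry2 between 1.71 and 1.75 and Dusp5 between 0.460 and 0.470. The median log2 ratio of the 10 genes lay between 0.21 and 0.24 under these scalings. It was 0.05 without Spry1, as it would be without any other 1 gene above the median. Leaving out Spry1 and adding Gm42922 were alternatives chosen after seeing the data. No paired analysis was possible because each group had 1 library. For the same reason no replicate could be left out.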
